A study of Caenorhabditis elegans with 6 samples.

Results

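The mitochondrial ribosomal protein genes were taken as all genes whose single symbol on the array begins with mrps-, for the small subunit, or mrpl-, for the large subunit. There were 59 of them, 25 of the small and 34 of the large subunit, among 17118 genes with a probe set naming no other gene. Where a gene had several probe sets, the probe set with the highest mean signal over the 6 arrays stood for it, so probe sets were chosen by the signal level, which is given here as a description. The genes had been singled out with these arrays' differences in view, so their shared direction is a description too. No filter on low values was applied in the main comparison, and all 59 genes entered the counts below unless a smaller set is named. The current gene table lists 71 such genes. Of the other 12, mrpl-13 and mrpl-58 share a probe set with another gene, and 10 genes, among them mrps-7, mrps-24 and mrpl-46, were not analysed here.

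The arrays measured whole Caenorhabditis elegans larvae of the wild-type strain N2, harvested at the L2 stage. Synchronized L1 larvae had been fed HT115 bacteria for 21 hours at 20 C on plates of 2% agarose. In the control group, 3 arrays, the bacteria carried the empty RNAi vector L4440. In the other group, 3 arrays, the vector carried an insert against the ligand-binding domain of nhr-23, the gene of a nuclear hormone receptor needed for molting. Feeding RNAi lowers, but does not delete, a gene product. The comparison asks how transcripts differ between larvae given nhr-23 RNAi and larvae given the empty vector, here for the protein-making machinery of mitochondria.

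Mitochondria carry their own ribosome, which makes a few membrane subunits of the respiratory chain and ATP synthase from messages of mitochondrial DNA. Its ribosomal RNAs come from mitochondrial DNA, whereas its proteins are encoded in the nucleus, made in the cytosol and imported. The small subunit reads the message, and the large subunit joins the amino acids. Some of the proteins descend from bacterial ribosomal proteins, and others exist only in mitochondrial ribosomes. In C. elegans, RNAi against mrps-5 and other mitochondrial ribosomal protein genes during larval life is known to extend adult lifespan and to switch on the mitochondrial unfolded protein response.

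Values are the authors' log2 signals per probe set, and a difference is the mean of the RNAi-labelled arrays minus the mean of the controls, on the log2 scale. The 2 probe sets of nhr-23 differed in opposite directions, from a mean of 8.04 in controls to 7.55 in RNAi-labelled arrays for one and from 6.32 to 9.04 for the other. By limma neither passed (adjusted p = 0.993 for both), and the second passed with the replicate number as a block (adjusted p = 0.0370). The part of the gene each reads is not known here, and whether the second also reads the fed double-stranded RNA was not tested. Neither value is therefore a measure of the knockdown, and groups are called as labelled. Markers of body wall muscle and intestine had a mean signal over 10 in every array. Those of oocytes and adults lay between 5.03 and 5.29, and those of sperm between 4.61 and 4.79, near the all-gene median of 5.14. Germline markers lay between 5.89 and 6.02 in controls and between 5.86 and 6.22 in RNAi-labelled arrays. Of the 9, 5 were higher, with a median difference of 0.090. In the same-number pairs of replicates 1, 2 and 3 they were higher in 1, 9 and 6 of 9. Markers of neurons were lower in 7 of 8 and those of pharyngeal muscle in 6 of 6, with medians of -0.17 and -0.26. The pairs did not share this direction. In the pairs of replicates 1, 2 and 3 neuron markers were higher in 5, 0 and 1 of 8. Pharyngeal markers were higher in 2, 0 and 5 of 6. The pharyngeal mean was 6.90 in RNAi replicate 2 and between 7.57 and 7.84 in the other arrays. Epidermal markers were higher in 4 of 7, with a median of 0.0059 and differences from -0.98 to 0.23. Of the 7, 2 were lower in all 3 same-number pairs, where 10.7% of all genes were. Their means ran from 8.26 to 8.44 in controls and from 7.86 to 8.34 in RNAi-labelled arrays. The part of these markers in the results below was not tested. In bulk RNA from whole larvae, fewer cells of a type and less RNA per cell cannot be told apart.

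Nearly all mitochondrial ribosomal protein genes read slightly higher in the RNAi-labelled arrays, and no single one passed the test. Of the 59 genes, 56 were higher and 3 lower, with a median difference of 0.096 (1.07-fold). Across all 17118 genes 55.7% were higher and 44.3% lower, with a median of 0.016. The differences of single genes ran from -0.070 for mrpl-37 to 0.25 for mrps-18B, so even the upper end was a difference of 1.19-fold. By limma, with Benjamini-Hochberg adjustment over 22548 probe sets, 0 of the 59 genes had an adjusted p under 0.05, against 0% of all probe sets. The smallest adjusted p among the genes was 0.993, and 0.758 with the replicate number as a block, a fit in which 0.00887% of all probe sets passed. At an unadjusted p under 0.05 limma gave 4 of the 59 genes, all higher, where 2.16% of all genes were higher and 1.46% lower by that rule. With the block it gave 5, all higher and not all the same genes, where 2.36% of all genes were higher and 3.54% lower.

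**Figure D1:**
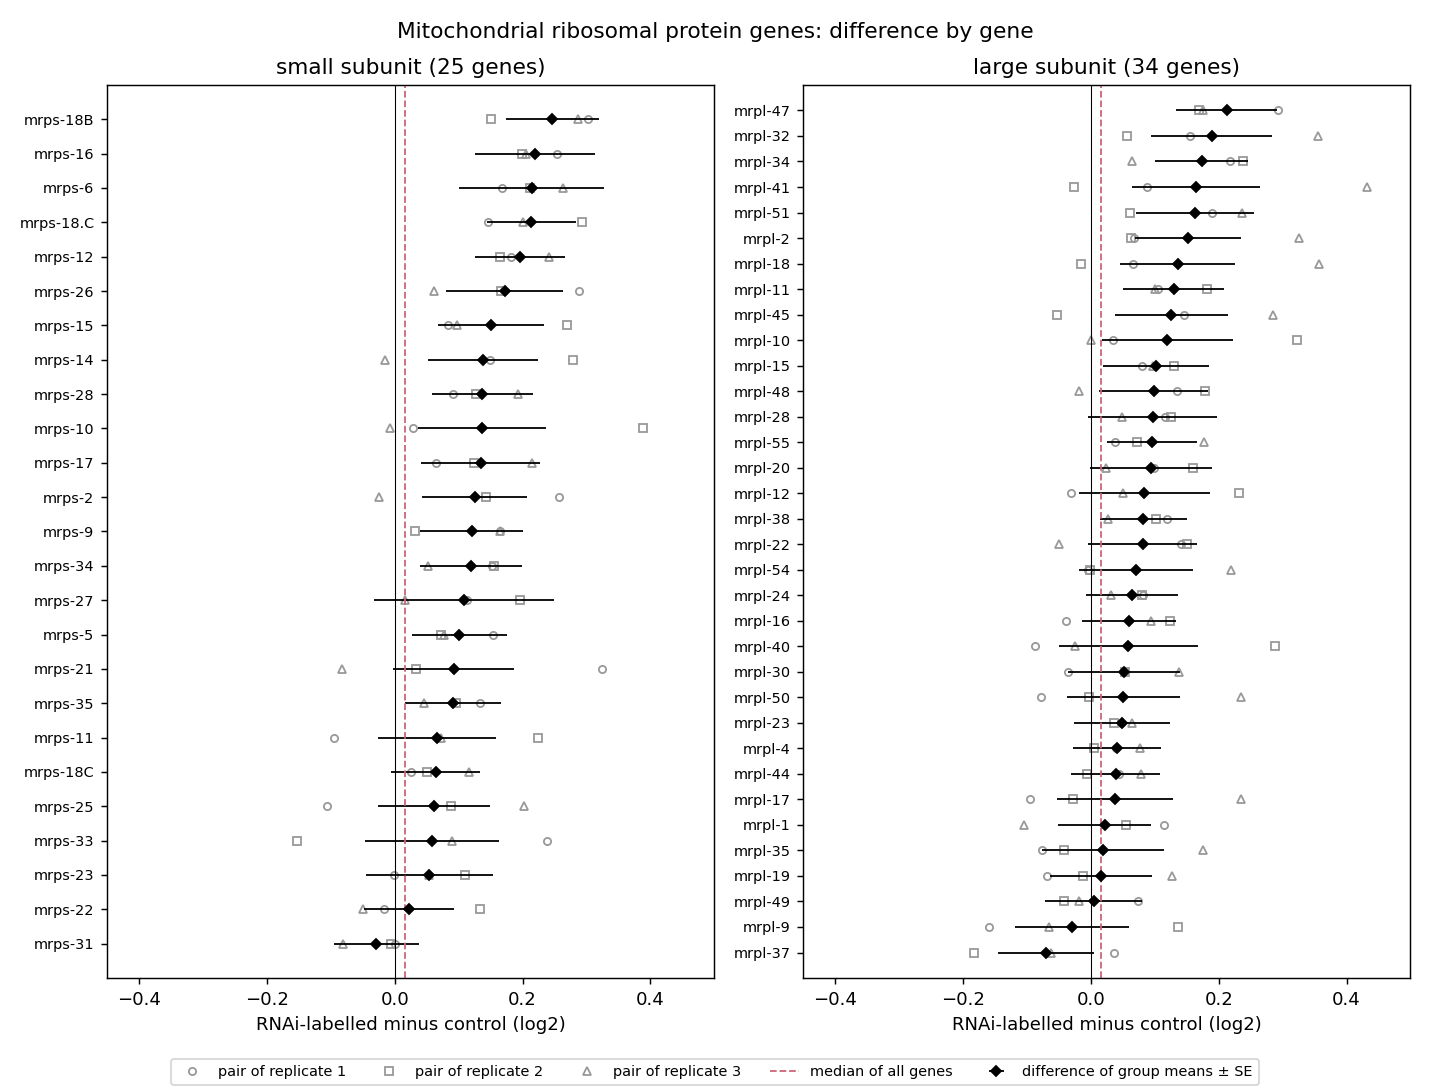
Difference between RNAi-labelled and control arrays on the log2 scale (x axis) for each of 25 small-subunit and 34 large-subunit genes (y axis). Diamonds with bars are the difference of group means with its standard error, open symbols are the 3 same-number pairs, the dashed line is the all-gene median of 0.016. Most diamonds lie to the right of 0, and 3 lie to its left.

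The higher reading was present in each of the same-number pairs of arrays. In the pairs of replicates 1, 2 and 3 the genes were higher in 45, 46 and 46 of 59 cases, with medians of 0.083, 0.11 and 0.078. For all genes the medians in these pairs were -0.0018, 0.022 and 0.031. A gene was higher in all 3 pairs in 30 of 59 cases, or 50.8%, where 16.8% of all genes were, and 17.8% of those with a mean signal from 7 to 10. None of the 59 was lower in all 3 pairs, where 10.7% of all genes were. The genes of a complex share the arrays and are not independent, so these shares are descriptions.

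The spread between arrays of a group was smaller for these genes than for genes at large. The median standard deviation within groups was 0.090 for them, 0.13 for all genes and 0.15 for the 3950 genes with a mean signal from 7 to 10, the range that holds 53 of the 59. Among those 3950 genes 54.8% were higher, with a median of 0.017. Among the 53, 51 were higher, with a median of 0.094. The difference, in either direction, exceeded the gene's own standard deviation within groups in 32 of the 59 genes, 17 of the small and 15 of the large subunit, where it did so in 27.9% of all genes.

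The mean over the 25 small-subunit genes was 7.87, 7.86 and 7.84 in the controls and 8.00, 8.00 and 7.93 in the RNAi-labelled arrays, in the order of replicates 1, 2 and 3. All RNAi-labelled arrays lay above all controls. For the 34 large-subunit genes the means were 8.10, 8.08 and 8.01 in the controls and 8.16, 8.16 and 8.12 in the RNAi-labelled arrays. Here too the groups did not overlap, but control replicate 1 lay only just below RNAi replicate 3. Control replicate 3 was the lowest of its group in 26 of the 34 large-subunit genes and in 12 of the 25 small-subunit genes, and in 43.9% of all genes. Without it the median difference of the large subunit was 0.054, against 0.082 with all arrays, and 27 of 34 genes were higher instead of 32. RNAi replicate 3 was the lowest of its group in 13 of 25 small-subunit and 15 of 34 large-subunit genes, and in 34.3% of all genes. The part of control replicate 3 in the result was not tested further.

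**Figure D2:**
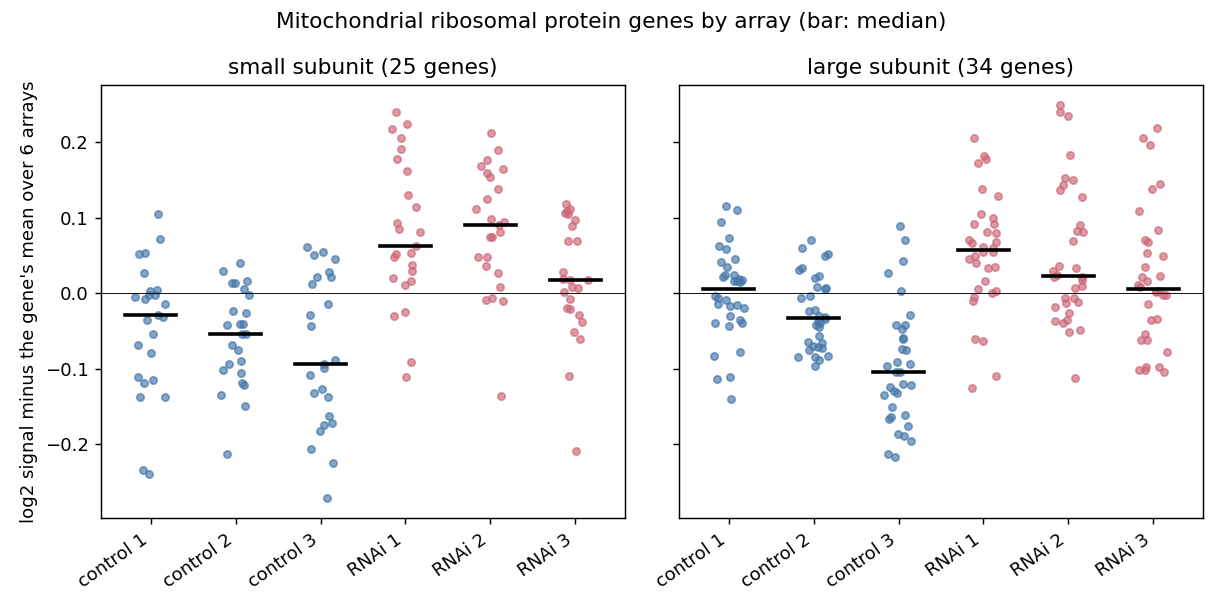
Log2 signal of each gene minus that gene's mean over the 6 arrays (y axis), by array (x axis), for the small and the large subunit. Dots are genes and bars are medians. The medians of the small subunit are -0.029, -0.054 and -0.094 in controls and 0.062, 0.090 and 0.017 in RNAi-labelled arrays. In the large subunit control replicate 3 has the lowest median, -0.105.

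In the small subunit 24 of 25 genes were higher, with a median of 0.12, and 15 were higher in all 3 pairs. The groups did not overlap in 6 genes, or 24% of the 25, all of them higher, where 6.49% of all genes, and 5.72% of those with a signal from 7 to 10, were separated in that direction. The groups were separate with the RNAi-labelled arrays lower in 0 of the 59 genes, against 2.99% of all genes and 3.09% of those in that signal range. The 6 small-subunit genes separated with the RNAi-labelled arrays higher were mrps-18B, mrps-16, mrps-18.C, mrps-12, mrps-28 and mrps-5. At an unadjusted p under 0.05 limma gave mrps-18B, mrps-18.C and mrps-12, and none of them passed after adjustment. They were 12% of the 25, where 2.16% of all genes were higher by that rule. With the replicate block mrps-12 was above that limit (limma unadjusted p = 0.0532), while mrps-16 (0.0349) and mrps-6 (0.0397) were below it, again with none passing after adjustment.

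The bacterial S6 and S18 proteins bind each other on the platform of the small subunit. The table held 3 genes of the S18 family, of which mrps-18B and mrps-18.C lay above the subunit's median difference and mrps-18C below it. The symbols mrps-18.C and mrps-18C stand for different genes. For mrps-18B the controls read 8.19, 8.23 and 8.12 and the RNAi-labelled arrays 8.49, 8.38 and 8.41. Every RNAi-labelled array was thus above every control, by at least 0.15, and the difference was 0.25 (SE 0.073; limma unadjusted p = 0.0123). For mrps-18.C the values were 8.47, 8.39 and 8.39 against 8.62, 8.68 and 8.59, a difference of 0.21 (SE 0.070; limma unadjusted p = 0.0189). The groups were again separate, with a gap of 0.12. The third gene, mrps-18C, differed by 0.064 (SE 0.070), and its groups overlapped.

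The gene mrps-6 read 8.70, 8.51 and 8.36 in controls and 8.87, 8.72 and 8.62 in RNAi-labelled arrays. The groups overlapped, because replicate 1 was the highest and replicate 3 the lowest in both. Within the pairs of replicates 1, 2 and 3 it was higher by 0.17, 0.21 and 0.26, and the difference of the means was 0.21 (SE 0.11).

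The relative of S12, a protein of the decoding centre where codon and anticodon are matched, is encoded by mrps-12. Its controls read 8.920, 8.935 and 8.816 and its RNAi-labelled arrays 9.102, 9.099 and 9.058. The RNAi-labelled arrays lay close together and above all controls, with a difference of 0.20 (SE 0.070; limma unadjusted p = 0.0278). The relative of S16, a protein of early small-subunit assembly in bacteria, is encoded by mrps-16. It was measured by 2 probe sets, and the brighter read 7.46, 7.71 and 7.59 in controls and 7.72, 7.91 and 7.79 in RNAi-labelled arrays. The gap between its groups was only 0.0072, while each pair differed by at least 0.20. The second mrps-16 probe set gave 7.02, 7.04 and 6.96 against 7.35, 7.09 and 7.15, a difference of 0.19 (SE 0.090) beside the 0.22 (SE 0.094) of the first, and its groups were also separate.

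Both probe sets of mrps-28 were separate between groups as well. The brighter read 7.66, 7.68 and 7.51 in controls and 7.75, 7.81 and 7.70 in RNAi-labelled arrays. The differences were 0.14 (SE 0.079) for this probe set, or 0.084 without control replicate 3, and 0.11 (SE 0.078) for the other. The gene mrps-5, the relative of bacterial S5 and the one tied to worm lifespan, read 9.495, 9.608 and 9.645 in controls and 9.649, 9.681 and 9.723 in RNAi-labelled arrays. Its groups were separated by 0.0037 only. The difference was 0.10 (SE 0.074), or 1.07-fold, and was positive in 3 of 3 pairs. Without control replicate 1 it was 0.058.

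Other small-subunit genes with bright signals had overlapping groups. The genes mrps-14 and mrps-11, relatives of bacterial S14 and S11, differed by 0.14 (SE 0.086) and 0.067 (SE 0.092). In mrps-11 the pair of replicate 1 ran the other way, at -0.096. The smaller differences of the subunit were those of mrps-33 (0.058, SE 0.11), mrps-23 (0.054, SE 0.099), mrps-22 (0.022, SE 0.071) and mrps-31 (-0.028, SE 0.067). These 4 encode proteins found only in mitochondrial ribosomes. For mrps-22 the controls read 8.16, 8.11 and 8.20 and the RNAi-labelled arrays 8.14, 8.25 and 8.15, so that only the pair of replicate 2 was higher.

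The lowest signals of the subunit were those of mrps-31, mrps-26 and mrps-27. The first read between 3.41 and 3.50 in all arrays, with the groups overlapping. The second read 4.603, 4.775 and 4.893 in controls and 4.890, 4.942 and 4.955 in RNAi-labelled arrays, a difference of 0.17 (SE 0.092). Its lowest RNAi-labelled array lay just below its highest control. The gene mrps-27, which in mammals encodes a protein of the pentatricopeptide repeat type, differed by 0.11 (SE 0.14), with a standard deviation of 0.16 in controls and 0.23 in RNAi-labelled arrays. The remaining small-subunit genes differed by amounts from 0.062 to 0.15 with overlapping groups.

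In the large subunit 32 of 34 genes were higher, with a median of 0.082, and 15 were higher in all 3 pairs. The groups did not overlap in 4 genes, or 11.8% of the 34, all higher, beside the 6.49% of all genes. These were mrpl-47, mrpl-34, mrpl-2 and mrpl-38. At an unadjusted p under 0.05 limma gave mrpl-47 alone. That was 2.94% of the 34, near the 2.16% of all genes that were higher by that rule.

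The gene mrpl-47 encodes the relative of bacterial L29, which sits beside the exit of the tunnel through which the new chain leaves. Its controls read 8.38, 8.45 and 8.32 and its RNAi-labelled arrays 8.67, 8.62 and 8.50. The groups were separate by 0.053, and the difference was 0.21 (SE 0.079; limma unadjusted p = 0.0321). For mrpl-34 the values were 8.46, 8.49 and 8.51 against 8.68, 8.73 and 8.58, a difference of 0.17 (SE 0.073). Its controls lay close together and all RNAi-labelled arrays were above them.

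The relative of L2, a protein next to the peptidyl transferase centre, is encoded by mrpl-2. It read 8.11, 8.16 and 8.07 in controls and 8.18, 8.22 and 8.39 in RNAi-labelled arrays. The groups were separate by 0.020, and the pair of replicate 3 differed most, by 0.33. The difference was 0.15 (SE 0.083), and 0.087 without RNAi replicate 3. The gene mrpl-38 read 8.35, 8.37 and 8.46 against 8.47, 8.47 and 8.49, a difference of 0.082 (SE 0.069) with a gap of 0.0080. Its dimmer probe set differed by 0.15 (SE 0.10), with overlapping groups.

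**Figure D3:**
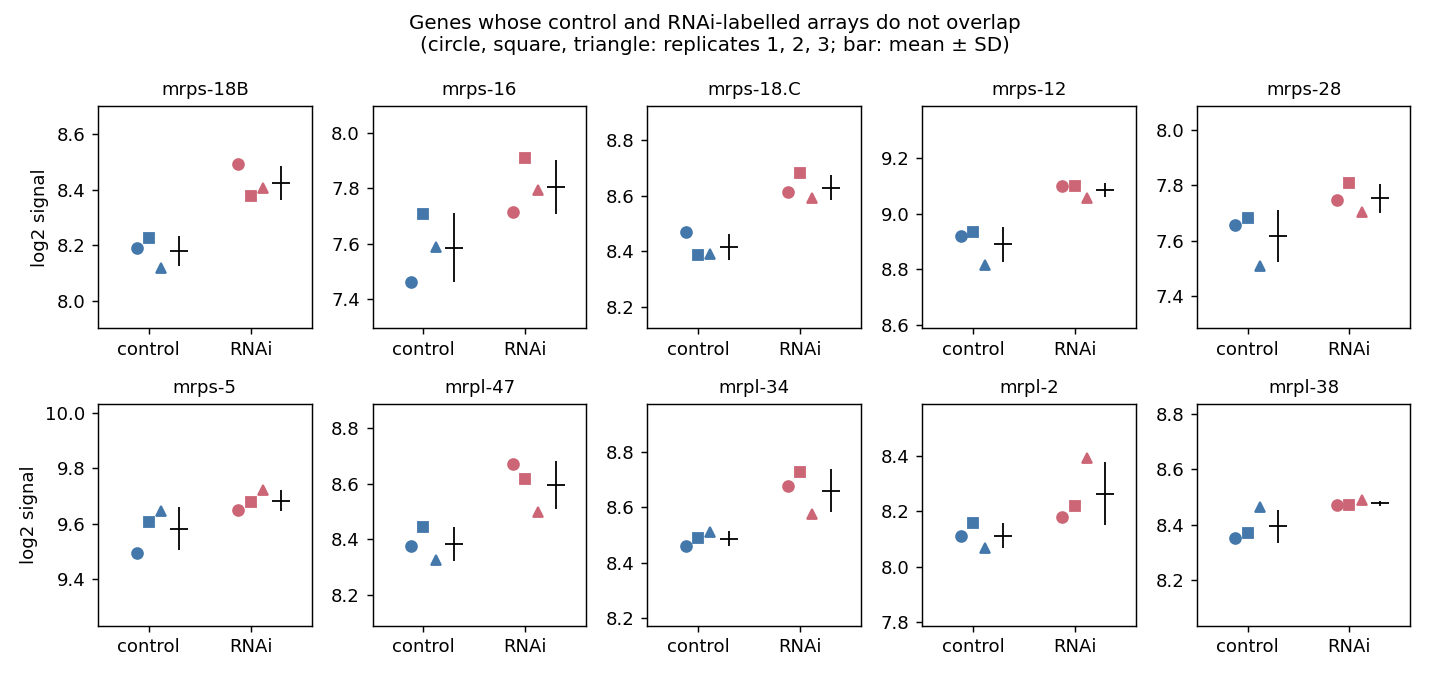
Log2 signal (y axis) of the 10 genes whose control and RNAi-labelled arrays do not overlap, each on an axis of the same height. Circles, squares and triangles are replicates 1, 2 and 3, and the bars are the mean with its SD. The gap between the groups is 0.15 for mrps-18B and 0.0037 for mrps-5.

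Other large-subunit genes with high differences overlapped between groups. For mrpl-32 the controls read 9.46, 9.36 and 9.23 and the RNAi-labelled arrays 9.62, 9.42 and 9.58, a difference of 0.19 (SE 0.095). For mrpl-41 they read 8.30, 8.28 and 8.09 against 8.38, 8.25 and 8.52, a difference of 0.16 (SE 0.10). In both genes control replicate 3 was the lowest of the 6 arrays and the pair of replicate 3 differed most, by 0.36 and 0.43. The gene mrpl-12 encodes the relative of L7/L12, the flexible stalk that recruits elongation factors. It differed by 0.084 (SE 0.10), and its RNAi replicate 2 stood above the other 5 arrays at 9.49.

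At the lower end lay mrpl-19 (0.016, SE 0.079), mrpl-49 (0.0041, SE 0.076), mrpl-9 (-0.030, SE 0.089) and mrpl-37 (-0.070, SE 0.075). For mrpl-37, which encodes a protein found only in mitochondrial ribosomes, the controls read 8.07, 8.18 and 8.18 and the RNAi-labelled arrays 8.11, 8.00 and 8.12. The groups overlapped, and only the pair of replicate 1 was higher. For mrpl-9 the values were 8.99, 8.96 and 8.96 against 8.827, 9.095 and 8.890, with the RNAi-labelled arrays on both sides of the controls.

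In mrpl-44 and mrpl-4 the probe sets of the gene differed in sign. Of the 3 for mrpl-44, which encodes a protein with a ribonuclease III-like fold, the brightest differed by 0.039 (SE 0.070) and the others by -0.030 (SE 0.10) and -0.028 (SE 0.078). For mrpl-4, the relative of the tunnel protein L4, the brighter differed by 0.040 (SE 0.069) and the dimmer by -0.026 (SE 0.11). None of these differences exceeded its standard error, so neither gene had a clear direction. In the gene table mrpl-4 lies next to mrps-2, the relative of bacterial S2, which read 7.50, 7.48 and 7.56 in controls and 7.76, 7.63 and 7.54 in RNAi-labelled arrays. The difference of mrps-2 was 0.12 (SE 0.082), with overlapping groups.

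The lowest large-subunit signals were those of mrpl-45, mrpl-24 and mrpl-28. In mammals the protein of the first holds the ribosome to the inner membrane. It read 3.29, 3.31 and 3.13 in controls and 3.44, 3.26 and 3.42 in RNAi-labelled arrays, a difference of 0.13 (SE 0.088). The mean signals of mrpl-45 and mrps-31 lay under 3.63, among the dimmest 25% of probe sets. Whether these 2 genes were detected at all was not tested. The signals of mrpl-24 and mrpl-28 differed by 0.064 (SE 0.072) and 0.096 (SE 0.10), each positive in 3 of 3 pairs. The remaining large-subunit genes differed by amounts from 0.019 to 0.16 with overlapping groups.

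The small subunit stood slightly above the large one in its difference. Its median was higher by 0.039, with both subunits measured on the same arrays. The mean of the small-subunit genes minus that of the large-subunit genes was -0.23, -0.22 and -0.17 in controls and -0.16, -0.15 and -0.19 in RNAi-labelled arrays. The groups overlapped, since RNAi replicate 3 lay below control replicate 3. The value moved with single arrays. It was 0.081 without RNAi replicate 3, 0.071 without control replicate 3 and 0.015 without control replicate 1. It was also 0.016 when probe sets with the suffix _s_at or _x_at were left out, which can read more than 1 transcript.

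Genes were also divided by whether the protein has a bacterial counterpart, by its number in the mammalian naming, with mrpl-55 left unclassed. The 16 small-subunit genes with a counterpart were all higher, with a median of 0.14. They held all 6 small-subunit genes whose groups did not overlap, where 6.49% of all genes were separated in that direction. The 9 small-subunit genes specific to mitochondria had a median of 0.062, with 8 higher. In the large subunit the medians were 0.082 for 22 genes with a counterpart and 0.071 for 11 specific to mitochondria. Those 11 had a median of -0.0034 in the pair of replicate 2, with 4 higher, and 2 of them were higher in all 3 pairs. Large-subunit groups did not overlap in 3 of the 22 and in 1 of the 11, all higher. Over both subunits, 23 of 38 genes with a counterpart and 6 of 20 specific to mitochondria were higher in all 3 pairs, where 16.8% of all genes were. The medians differed by 0.045 over both subunits, and by 0.014 without RNAi replicate 2. The mean of the former minus that of the latter was 0.79, 0.77 and 0.76 in controls and 0.80, 0.84 and 0.78 in RNAi-labelled arrays, so that RNAi replicate 3 lay within the controls.

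**Figure D4:**
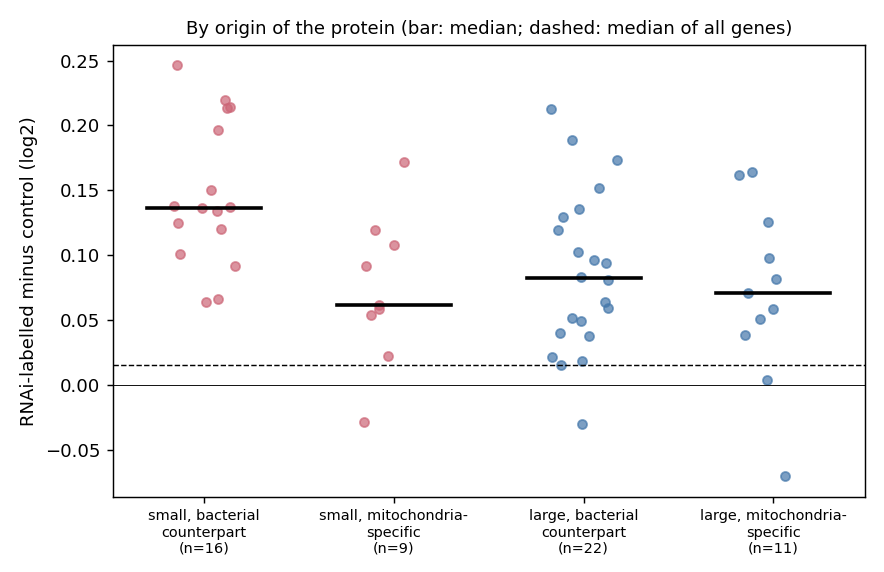
Difference between RNAi-labelled and control arrays on the log2 scale (y axis) for genes by subunit and by whether the protein has a bacterial counterpart (x axis). Dots are genes, bars are medians and the dashed line is the all-gene median of 0.016. The 16 small-subunit genes with a counterpart have the median of 0.14.

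Most other measured genes of mitochondrial translation also read slightly higher, and none passed the test. Of 9 translation factor symbols 5 were measured, and 4 of them were higher, with a median of 0.12. The genes gfm-1, tufm-2 and tsfm-1 encode elongation factors of the EF-G, EF-Tu and EF-Ts types. They differed by 0.18 (SE 0.082), 0.15 (SE 0.071) and 0.12 (SE 0.076). In these 3 of the 5 factors the RNAi-labelled arrays lay above all controls, where they did so in 6.49% of all genes. The gene tufm-1, also of the EF-Tu type, differed by -0.0039. For gfm-1 the controls read 9.38, 9.35 and 9.42 and the RNAi-labelled arrays 9.59, 9.44 and 9.65. Mitochondrial aminoacyl-tRNA synthetases, which load tRNAs with amino acids, were higher in 9 of 10 measured genes, with a median of 0.087. In the pair of replicate 1 only 5 of the 10 were higher, with a median of -0.0085. Just 1 of the 10 was higher in all 3 pairs, where 16.8% of all genes were. They ran from -0.094 for rars-2 to 0.17 for yars-2. Only yars-2, 1 of the 10, was separate between groups, beside the 6.49% of all genes. The gene dap-3, whose mammalian relative is a small-subunit protein under another name, differed by 0.094 (SE 0.081), higher in 3 of 3 pairs. The other listed partners, metl-17 and mma-1, differed by 0.11 and -0.037. Of these genes 0 passed the limma threshold.

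Protein import genes, which bring proteins such as these into the organelle, were higher in 15 of 17 cases, with a median of 0.11. They ran from -0.053 for timm-17B.1 to 0.29 (SE 0.14) for tin-13, a small chaperone of the intermembrane space, and the list median in the pair of replicate 2 was 0.00080. Subunits of oxidative phosphorylation were higher in 28 of 32 genes, with a median of 0.066, and groups were separate in 8 of the 32, all higher, beside the 6.49% of all genes. They ran from -0.054 for mev-1 to 0.21 for asb-1. Genes that maintain and transcribe mitochondrial DNA were higher in 2 of 5 cases, with a median of -0.038, from -0.23 for the helicase gene twnk-1 to 0.15 for mtss-1, which encodes a single-stranded DNA binding protein. The mitochondrial DNA-encoded subunits themselves were not analysed here.

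Chaperones, proteases and regulators of the mitochondrial unfolded protein response had a median of 0.031, with 10 of 16 higher. The chaperone genes hsp-6 and hsp-60, the usual reporters of this response, differed by -0.050 (SE 0.094) and 0.037 (SE 0.095). The regulator gene atfs-1 differed by -0.025 (SE 0.12). The gene spg-7, which encodes a protease of the inner membrane that processes a large-subunit protein in yeast and mouse, read 8.17, 7.98 and 8.22 in controls and 7.60, 7.54 and 7.34 in RNAi-labelled arrays. All RNAi-labelled arrays lay below all controls, a difference of -0.63 (SE 0.10), or 1.55-fold lower, but the limma adjusted p over all probe sets was 0.993. With the replicate block the smallest limma adjusted p of the list was 0.212. In this list 1 of 16 genes was separated lower and 3 of 16 higher, where 2.99% and 6.49% of all genes were.

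The ribosomal proteins of the cytosol, which make up the separate ribosome that translates nuclear messages, had a median difference near that of all genes. Of 75 genes 46 were higher, with a median of 0.0080, and the differences ran from -0.095 for rpl-15 to 0.14 for rpl-41.1. Their median signal was 13.11, against 8.27 for the 59 genes and a highest signal of 14.23 among all genes. Their median standard deviation within groups was 0.042, against 0.090 for the 59. Whether signals this high keep differences small was not tested. In the pairs of replicates 1, 2 and 3 their medians were 0.014, 0.0086 and -0.0041. Their list mean was 12.946, 12.942 and 12.940 in controls and 12.963, 12.949 and 12.945 in RNAi-labelled arrays, with the groups overlapping. The difference between the lists was not tested.

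**Figure D5:**
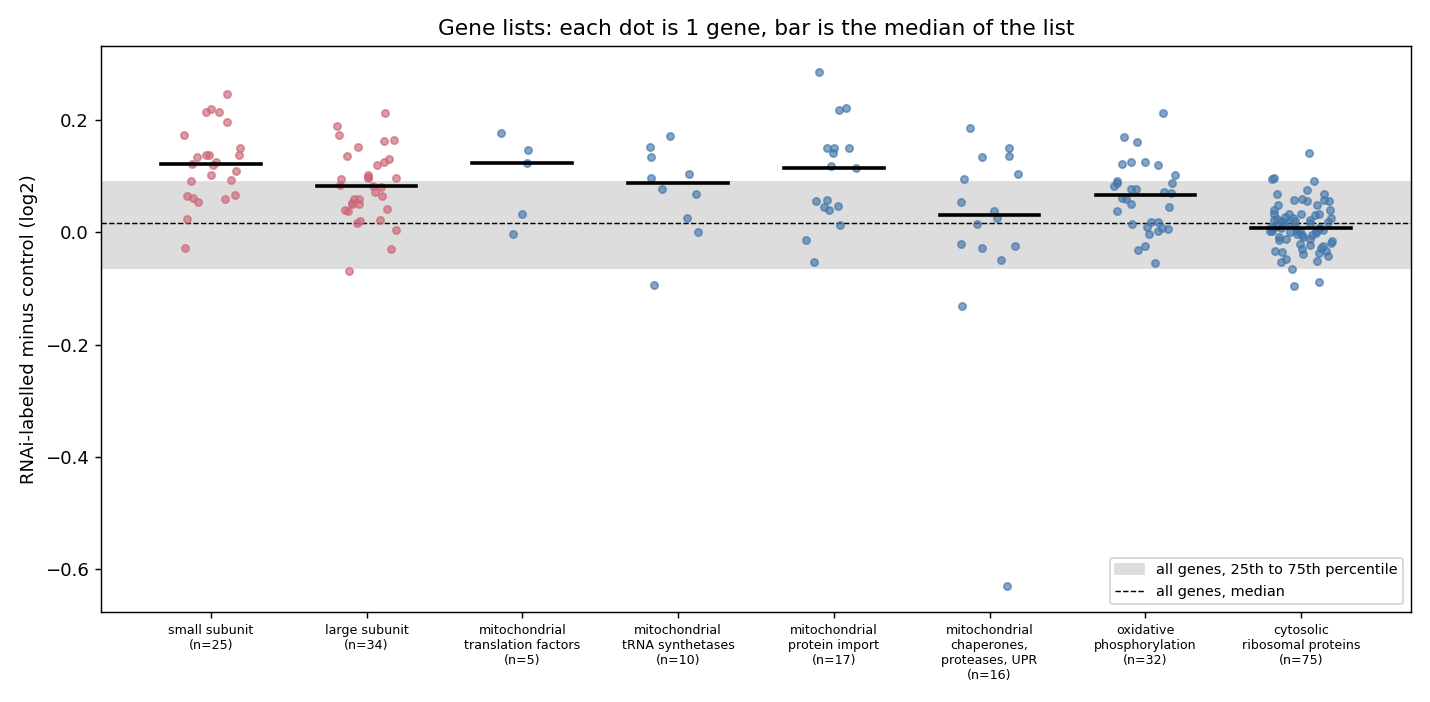
Difference between RNAi-labelled and control arrays on the log2 scale (y axis) for the genes of 8 lists (x axis). Dots are genes, bars are list medians, and the grey band and dashed line are the 25th to 75th percentile and the median of all genes. The medians are 0.12 and 0.082 for the small and large subunit and 0.0080 for cytosolic ribosomal proteins, and spg-7 lies apart at -0.63.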

How the data were processed

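The deposited table holds the authors' log2 signal of each probe set on 6 single-colour Affymetrix arrays, hybridised with cRNA from 4 ug of total RNA per the labels' protocols. The submitters' processing notes list MAS5, RMA and Partek but give neither version nor role, so the background correction and normalization behind the values are not known here. Array medians lay between 5.12 and 5.18. No detection calls were used, and the number of arrays limits the precision.

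Of 22625 probe sets, 77 were array controls and 22548 were tested without filter or further normalization. The platform annotation gave 1 symbol for 20766, several for 887 and none for 895. Symbols were updated through Entrez identifiers for 20701 probe sets with the WBcel235 gene table. The update left the same number of mitochondrial ribosomal protein genes, 59.

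The group comparison used lmFit and eBayes of limma 3.58.1 under R 4.3.3 (2-sided, group as the only term), Benjamini-Hochberg adjustment over 22548 probe sets, threshold 0.05. The fit was tested on simulated data. The members and lists were chosen with earlier results of these data known, so lists have counts and medians and no test. The signal range from 7 to 10 and the class of mrps-18.C, set by its number, were chosen after the files had been seen. Named genes are mrps-5, the 3 brightest and 3 dimmest genes and the 4 highest and 4 lowest differences of each subunit, genes with separate groups, genes whose probe sets disagree, and the extremes of other lists. A few more were named after their values were seen: mrps-18C, mrps-2, dap-3, tsfm-1, tufm-2, metl-17, mma-1, hsp-6, hsp-60 and atfs-1.

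The labels call the replicates biological and say no more, so p-values measure the spread between these samples. Deviations from group means correlated at 0.58, 0.17 and 0.57 across probe sets between same-numbered arrays, and the numbers were taken to pair the arrays. Control replicate 2 correlated more with RNAi replicate 1, at 0.23, than with its own number. That rests on the values, not on a statement in the labels. Over the 59 genes alone these correlations were 0.32, -0.032 and 0.14. At most 27 probe sets were identical between 2 arrays of a group, so none was treated as a duplicate. The alternatives tried were the replicate block, quantile normalization, centring on a common median, filters on dim and shared probe sets, the mean of all probe sets, leaving out arrays, and a trended robust variance. No sequences are printed.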

Additional observations from a re-analysis of the deposited data

How the results depend on the processing

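Under the 14 alternatives 0 mitochondrial ribosomal protein genes passed the threshold, while over all probe sets 2 passed with the replicate block and 0 otherwise. With the replicate block the medians were those of the unblocked fit, 0.12 and 0.082 for the small and large subunit, and no mitochondrial ribosomal protein gene passed after adjustment, while an nhr-23 probe set did (limma adjusted p = 0.0370). Both medians stayed positive in every alternative, and the count of higher genes was 50 of 59 at its lowest, without control replicate 3 or both replicate 3 arrays. Leaving out 1 array, the small-subunit median ran from 0.11 to 0.16, and it was 0.15 without both replicate 3 arrays. The large-subunit median ran from 0.054 to 0.099. The difference between the subunits ran from 0.015 to 0.081, and was 0.094 without both replicate 3 arrays. That between genes with and without a bacterial counterpart ran from 0.014 to 0.065. Centring on a common median moved the all-gene median from 0.016 to 0.033. Leaving out the dimmest 25% of probe sets removed 2 of the 59 genes, mrps-31 and mrpl-45, and leaving out _s_at and _x_at probe sets removed 9.

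Of 31 named genes 23 kept their direction in every alternative and 8 did not, all with differences under 0.1 in size. Leaving out 1 array, mrpl-12 ran from -0.016 to 0.135, mrpl-19 from -0.046 to 0.056, mrpl-49 from -0.028 to 0.044, mrpl-9 from -0.109 to 0.025, mrps-22 from -0.012 to 0.042, mrps-23 from -0.014 to 0.122 and mrps-33 from -0.039 to 0.142. With 1 array left out, 23 of the 31 differences moved by over 1.5 times at least once, and the other 8 did not: mrps-18B, mrps-16, mrps-18.C, mrps-12, mrpl-47, mrpl-32, mrpl-34 and mrpl-38. Among those that kept their direction, mrps-11 ran from 0.0085 to 0.129, mrps-27 from 0.023 to 0.240 and mrpl-28 from 0.032 to 0.172. Without both replicate 3 arrays mrpl-19 was -0.040. For mrpl-44 the mean of its probe sets gave -0.0064, and leaving out _s_at and _x_at probe sets gave -0.028. The cause was not tested.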
